A study of Gasterosteus aculeatus with 31 samples.

Results

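The half-dose peaks are 1487 of the 102149 ATAC-seq peaks of this series, in the middle of groupXIX, whose level in males was about 0.50 of that in females. They were chosen by 3 criteria: a start between 4 and 12 Mb on groupXIX, at least 10 counts over all 31 libraries, and a mean level in males below 0.60 of the mean level in females. Levels are CPM, counts scaled here to each library's total off groupXIX so that the sex chromosome did not enter its own scale. The male and female values of these peaks are therefore a description of what was selected on, and carry no test. The stretch held 1696 peaks, of which 87.7% met the rule and 209 did not.

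In threespine stickleback (Gasterosteus aculeatus) groupXIX is the sex chromosome: males are XY and females XX. The Y has diverged from the X over part of its length, and there a male carries a single copy of the X sequence that a female carries as a pair. In ATAC-seq the Tn5 transposase cuts open DNA and tags it for sequencing, so the count of a peak rises with how open each copy is and with the number of copies. No library of untransposed DNA was used here, so fewer copies and less open chromatin per copy cannot be told apart in these counts.

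Each library came from the left or right side of the brain of 1 juvenile fish. There were 8 father-reared males and 8 father-reared females, raised by their wild-caught fathers (Day 10 in the labels), and 7 orphaned males and 8 orphaned females, hand-reared without him (Day 0). The father alone tends eggs and fry in this species, and the design asks what his care leaves behind in the brain of his offspring. All fish were 6 to 8 months old and not yet mature, were sexed with a DNA marker, explored an arena for 10 minutes, were then exposed to a model sculpin (a predatory fish), and were killed 60 minutes after that simulated attack. Identifiers with a common leading number were taken as siblings, an inference that gave 15 families with a brother and a sister and 1 orphaned family with a female alone. Half-brain homogenate mixes all cell types, and since peaks carry no gene names the tissue was not checked against marker genes. Library totals ran from 2857578 to 10540612 counts with a median of 4424554. The half-dose peaks held 23100 to 60934 of these counts in a male library and 45779 to 165992 in a female library.

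The male to female ratio of the half-dose peaks centred on 0.50. Its median was 0.50, its quartiles 0.470 and 0.527, and its 5th and 95th percentiles 0.428 and 0.567. The lowest ratio was 0.347 and the highest, set by the rule, was 0.5998. Of the 1487 peaks, 749 lay below a ratio of 0.50, and 75.3% lay between 0.45 and 0.55. On the lower side, which the rule left free, 13 lay below 0.40. The other 209 peaks of the stretch had a median ratio of 0.770, with 48 between 0.60 and 0.65 and 29 at or above 1. Off groupXIX the median ratio was 0.988, and 51 of 97758 peaks (0.0522%) lay below 0.60.

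The standard error of a single peak's ratio, from the spread over 15 males and 16 females, had a median of 0.0407, and the standard deviation of the ratio over the 1487 peaks was 0.0419. The rule left out peaks at 0.60 and above, so this SD is cut off by the choice of members and understates the spread of the stretch as a whole, and nothing is read from how it compares with the error.

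**Figure D1:**
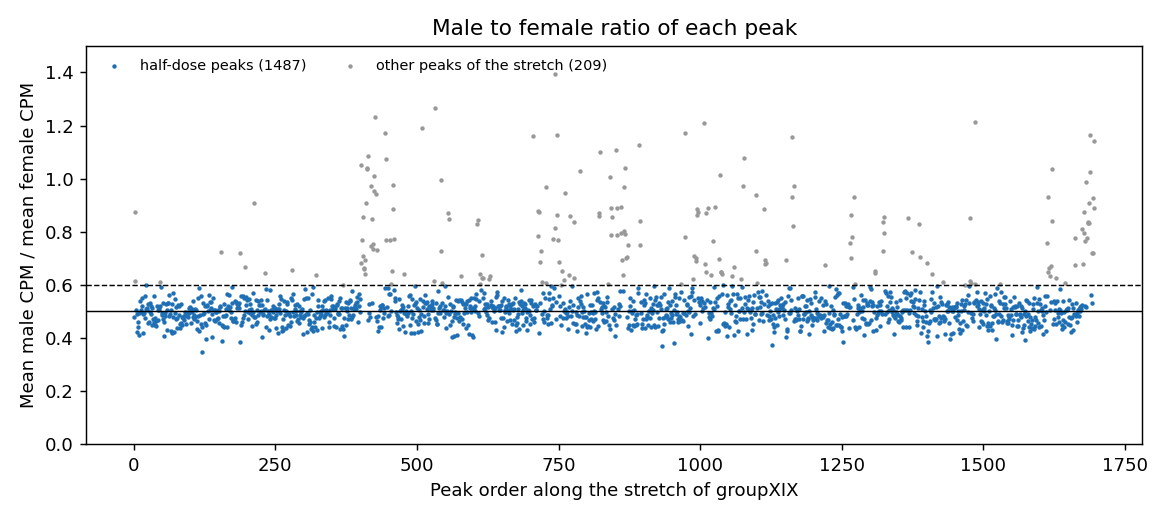
Mean male CPM divided by mean female CPM (vertical axis, no unit) of every peak of the stretch, in the order of their positions (horizontal axis, peak rank). Blue points are the 1487 half-dose peaks and grey points the other 209; the solid line marks 0.50 and the dashed line the threshold of 0.60. The blue points form 1 band around 0.50 from end to end, and the grey points gather in a few places above it.

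The strongest half-dose peak lay at groupXIX 10099628 to 10100028. It had 30.1 CPM in the lowest, 44.8 CPM in the median and 54.7 CPM in the highest male, and 60.1, 81.2 and 130 CPM in the lowest, median and highest female. Every male lay below every female there, at a ratio of 0.516. At groupXIX 8051328 to 8051728 the males had 19.1, 30.5 and 42.2 CPM (lowest, median and highest) and the females 40.2, 58.0 and 82.0 CPM, so that the highest male passed the lowest female. The next were groupXIX 5948639 to 5949039, with a median of 32.3 CPM in males and 59.6 CPM in females, and groupXIX 9279106 to 9279506, with 28.7 CPM in males and 54.1 CPM in females. The fifth, groupXIX 8577743 to 8578143, had a median of 28.0 CPM in males and 53.7 CPM in females. These 5 peaks had ratios from 0.516 to 0.5505, all above the middle of the 1487.

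The widest peak of the whole series was also a half-dose peak. It spans 1173 bases at groupXIX 7620541 to 7621714, where most peaks are 400 wide. It had 15.0, 19.4 and 26.2 CPM in the lowest, median and highest male and 27.9, 35.8 and 51.8 CPM in the lowest, median and highest female. Every male lay below every female, and the ratio was 0.519. In all, 18 half-dose peaks (1.21%) were wider than 400, none of the other 209 peaks of the stretch were, and 1.08% of all peaks were. These 18 had ratios from 0.441 to 0.598.

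**Figure D2:**
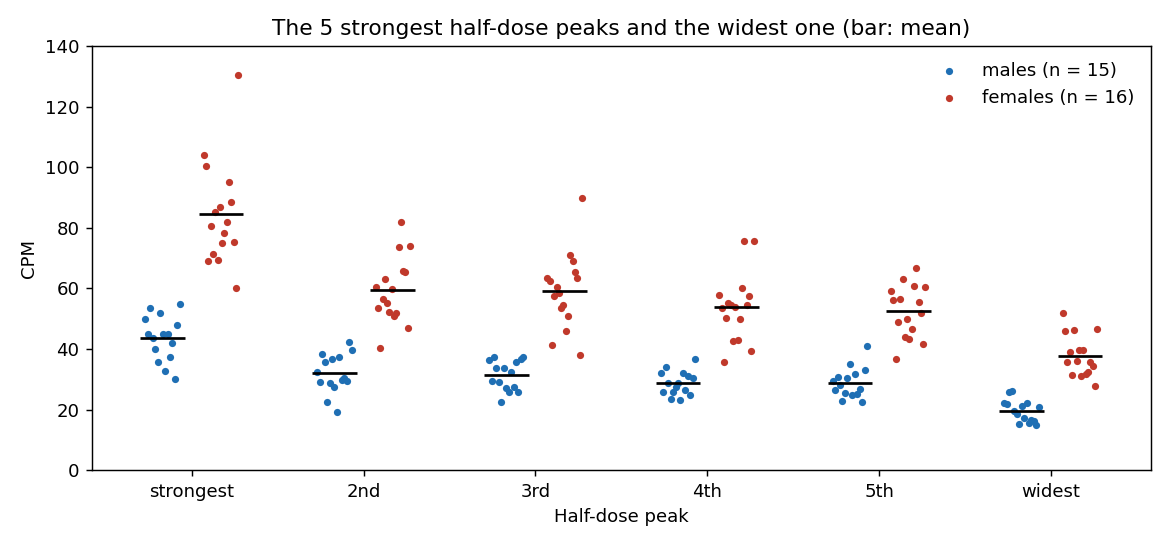
CPM (vertical axis, from 0) of the 5 strongest half-dose peaks and the widest one in each fish; blue points are the 15 males, red points the 16 females, and bars the means. Male means lie between 19.6 and 43.6 CPM and female means between 37.8 and 84.5 CPM.

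At the lower end of the ratio stood groupXIX 4743876 to 4744276, with 1.33, 2.15 and 3.27 CPM in the lowest, median and highest male and 4.52, 6.58 and 8.17 CPM in the lowest, median and highest female. Its ratio was 0.347 ± 0.0304 (SE), and no male reached a female. Next came groupXIX 8349328 to 8349728 at 0.372 ± 0.0349 and groupXIX 9201374 to 9201774 at 0.375 ± 0.0445. These 3 peaks were picked as the extremes of the 1487. At the threshold, the 3 nearest peaks inside it, groupXIX 4276769, 8859353 and 11116109, had ratios of 0.5998, 0.599 and 0.598, with standard errors of 0.0548, 0.0628 and 0.0507. The 3 nearest outside, groupXIX 7626588, 11034957 and 5894554, had ratios of 0.601, 0.601 and 0.601. The step across the threshold was far smaller than any of these errors.

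In 480 of the 1487 half-dose peaks (32.3%) every male lay below every female. Over all peaks of the series this held for 0.557%, among them 3 of the other 209 peaks of the stretch and none off groupXIX. The rule used the same values, so nothing is read from that difference. The 480 peaks had a median of 7.88 CPM over all fish, and the 1007 peaks whose sexes overlapped had 5.88 CPM. Over all 1487 half-dose peaks a male library had a median of 12 to 33 counts per peak and a female library 23 to 83. Whether the overlap of the sexes follows from low counts was not tested.

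Half-dose peaks were found along the whole stretch, though they were a minority in 2 windows of 100 kb. Between 78.3% and 97.8% of the peaks met the rule in each of the 8 windows of 1 Mb, and their median ratio stayed between 0.494 and 0.503 in all 8. Summed over the half-dose peaks of a window, the male level relative to females was lowest from 4 to 5 Mb, at 0.499 ± 0.0174 (SD, n = 15), and highest from 8 to 9 Mb, at 0.510 ± 0.0120. These windows differed by less than 1 SD over males. Both levels come from the same 15 males, so that SD is not the error of the difference, which was not tested. Windows of 100 kb with at least 5 half-dose peaks had medians from 0.460 (4100000 to 4199999, 7 peaks) to 0.530 (11100000 to 11199999, 11 peaks). In 30 of the 80 windows of 100 kb every peak was a half-dose peak.

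The longest unbroken run held 106 half-dose peaks from groupXIX 4365829 to 4817015. The next runs held 82 peaks (11358474 to 11739995) and 74 peaks (7008389 to 7371837). Of the other 209 peaks, 56 stood alone, with no other such peak next to them. Their longest run held 13 peaks over 23808 bases at groupXIX 6009376 to 6033184, in a 100 kb window where 8 of 31 peaks were half-dose peaks. Those 8 had a median ratio of 0.488. The only other 100 kb window with a minority of half-dose peaks was the last, which starts at 11900000, with 10 of 28.

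The ends of the stretch differed. Of the last 20 peaks before 4 Mb, 12 already had a ratio below 0.60 (median 0.557), and 18 of the first 20 from 4 Mb did (median 0.493), so the low ratios began before the border that the rule set. At the other end 4 of the last 20 peaks before 12 Mb had a ratio below 0.60 (median 0.832), as did 8 of the first 20 after it (median 0.707). On groupXIX outside the stretch 296 of 2695 peaks had a ratio below 0.60.

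The median distance to the nearest peak start was 1358 bases for half-dose peaks, 1209 for the other peaks of the stretch and 1288 for the linkage groups other than groupXIX. The median level in females was 8.32 CPM for half-dose peaks, 8.90 CPM for the other peaks of the stretch and 7.62 CPM off groupXIX. In their upper part the other peaks of the stretch were stronger: the upper quartile in females was 11.3 CPM for half-dose peaks, 19.1 CPM for the other peaks of the stretch and 10.2 CPM off groupXIX. In males the medians were 4.15 CPM, 6.83 CPM and 7.43 CPM in the same order. The strongest 10% of half-dose peaks, 149 in number, held 26.9% of their summed CPM.

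The ratio moved slightly with peak strength. The half-dose peaks were cut into 10 bins of like size by female level. In the weakest bin the median ratio was 0.490, it was lowest in the fifth bin at 0.476, and it was 0.527 in the strongest bin. Peaks off groupXIX at the same female levels moved alike, with medians of 0.985 in the weakest, 0.968 in the fifth and 1.03 in the strongest bin. Divided by the ratio off groupXIX, the half-dose ratio lay between 0.492 and 0.513 in all 10 bins. At the female levels of the strongest bin 73.4% of the peaks of the stretch were half-dose peaks, against 93.1% in the eighth bin.

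**Figure D3:**
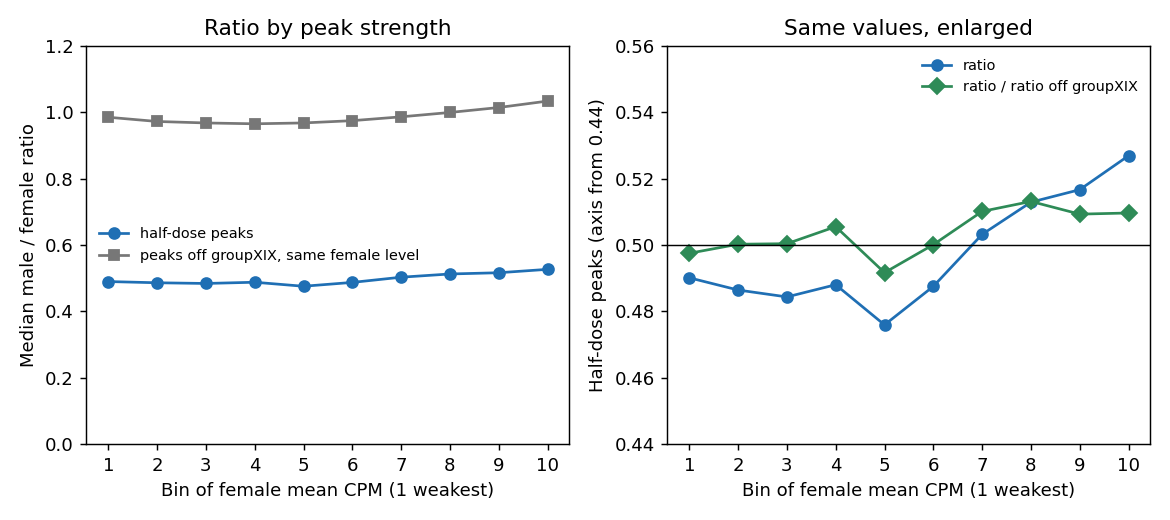
Median male to female ratio (vertical axis, no unit) by bin of female mean CPM (horizontal axis, 10 bins, weakest first). Left, half-dose peaks (blue) and peaks off groupXIX at the same female level (grey), from 0; right, half-dose peaks on an axis that starts at 0.44, before (blue) and after (green) division by the ratio off groupXIX. The blue line ends at 0.527 and the green line stays between 0.492 and 0.513.

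Summed over all half-dose peaks, the level varied by little more than 1% between fish of 1 sex. Father-reared males had 7979, 8153 and 8390 CPM in the lowest, median and highest fish, and orphaned males 8031, 8107 and 8337 CPM. Father-reared females had 15908, 16166 and 16496 CPM and orphaned females 15893, 16025 and 16437 CPM. The 2 care groups overlapped almost fully in each sex. The coefficient of variation was 1.46% over the 15 males and 1.16% over the 16 females, against 0.541% and 0.371% from counting error alone. In summed level males stood at 50.6% ± 0.738 of the female mean (SD, n = 15), with 49.5% in the lowest and 52.0% in the highest male. The median half-dose peak of a fish, each peak taken relative to its female mean, varied more. Its coefficient of variation was 2.91% in males (45.8% to 51.2%) and 3.84% in females (89.3% to 104.9%). It was 5.05% in father-reared and 1.85% in orphaned females, and 2.91% and 2.71% in males. The share of counts off groupXIX in the strongest 10% of peaks also varied more in father-reared females. Its coefficient of variation was 13.7% there and 8.25% in orphaned females, against 9.59% and 10.2% in father-reared and orphaned males. None of these spreads was compared by a test. As a share of the library the half-dose peaks took 0.787% ± 0.0111 of the counts in males and 1.54% ± 0.0175 in females (SD, n = 15 and 16).

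**Figure D4:**
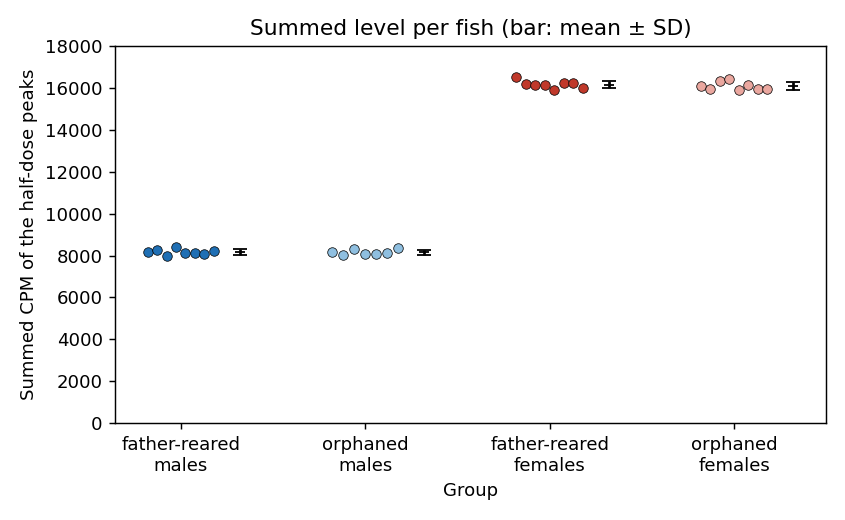
Summed CPM of the 1487 half-dose peaks (vertical axis, from 0) in each fish, by sex and care group; bars are means ± SD. The males lie between 7979 and 8390 CPM and the females between 15893 and 16496 CPM, and within each sex the father-reared and orphaned fish cover nearly the same range.

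The care groups differed in summed level by less than the spread between fish, and no test of it passed. In males the geometric mean was 8166 CPM with father care and 8149 CPM in orphaned fish, a log2 difference of 0.00294 (two-sided exact permutation p = 0.794). In females it was 16157 CPM with father care and 16089 CPM in orphaned fish, a log2 difference of 0.00607 (exact permutation p = 0.485). Library numbers 1 to 11, 12 to 22 and 23 to 33, taken as possible batches, gave care differences of -0.00342, 0.0331 and -0.0151 in males and of 0.0224, -0.0165 and 0.0180 in females, with both signs in each sex. Each of these rests on 2 to 4 fish per care group. In males of numbers 12 to 22 the 2 father-reared fish were left and the 2 orphaned fish right brain sides. The 0.0331 is therefore the left minus right difference as well, and care and side cannot be told apart there. The brother's level divided by his sister's was 0.505 ± 0.00944 in father-reared families (SD, n = 8, from 0.494 to 0.520) and 0.508 ± 0.00748 in orphaned families (SD, n = 7, from 0.499 to 0.523). Their log2 values differed by -0.00753, father-reared minus orphaned (exact permutation of care over 15 families, p = 0.557). Left brain sides minus right brain sides gave a log2 difference of 0.00702 in males (5 and 10 fish, exact permutation p = 0.559) and 0.00992 in females (8 and 8 fish, exact permutation p = 0.243). After Benjamini-Hochberg adjustment over these 5 exact permutation tests the p values ran from 0.698 to 0.794. The 95% interval of the care difference in summed level ran from -1.47% to 1.92% in males and from -0.853% to 1.73% in females. It came from inversion of the exact permutation test and does not cover a difference in the median half-dose peak.

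Peak by peak, care was tested over the whole table with edgeR, and 1480 half-dose peaks passed its filter on low counts. None of them passed the test of father-reared against orphaned fish at an edgeR adjusted p under 0.05, and 0% of all peaks tested passed (lowest adjusted p among half-dose peaks 0.58). At a raw p under 0.05 there were 98 half-dose peaks (6.62%), against 7.24% of all peaks tested. Of these, 61 (4.12%) were higher in father-reared fish, against 3.59% of all peaks, and 37 (2.50%) were lower, against 3.66%. DESeq2 also called 0, with 100 of 1480 at a raw p under 0.05, against 7530 of all 100808 peaks tested. Limma with family as a replicate block called 0, with 97 of 1480, against 6633 of 100808. The median log2 difference of the half-dose peaks was 0.01 and that of all peaks tested -1.47e-05. For 98.6% of the half-dose peaks the 95% interval stayed inside 1.5-fold up or down.

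The half-dose peak with the lowest raw p for care was groupXIX 8627906 to 8628306. It had 4.92, 6.21 and 10.2 CPM in the lowest, median and highest father-reared male, and 0.613, 2.77 and 7.47 CPM in orphaned males. In father-reared females it had 6.56, 12.3 and 18.8 CPM, and in orphaned females 2.28, 9.08 and 14.2 CPM. There 5 orphaned males and 1 orphaned female lay below every father-reared fish of their sex, and the others lay within the father-reared range. Father-reared minus orphaned gave 0.66 on the log2 scale with an SE of 0.16, which did not pass (edgeR adjusted p = 0.58). The next 4 by raw p had edgeR adjusted p values of 0.67 and 0.69. Of these, groupXIX 6127510 had a log2 difference of 0.28, groupXIX 4739847 of -0.42, groupXIX 7516373 of -0.49 and groupXIX 8366675 of -0.41.

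Within males 0 half-dose peaks passed, as did 0% of all peaks tested (edgeR, lowest adjusted p among half-dose peaks 0.92). At a raw p under 0.05 there were 74 (5.00%), against 5.31% of all peaks tested. DESeq2 gave 0 calls and 69 of 1480 at that raw p, against 5035 of 100808 peaks. The lowest raw p belonged to groupXIX 9866403 to 9866803, with 2.85, 5.08 and 11.3 CPM in father-reared males and 2.45, 3.24 and 3.99 CPM in orphaned ones. The father-reared males spread upward from the orphaned range. Their log2 difference of 0.87 (SE 0.23) did not pass (edgeR adjusted p = 0.92). At groupXIX 4739847 to 4740247 father-reared males had 1.96, 2.51 and 3.37 CPM and orphaned males 3.46, 3.74 and 6.80 CPM. It was the only half-dose peak whose male care groups did not overlap (0.0672% of 1487, against 0.0323% of all peaks).

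Within females 0 half-dose peaks passed either, and 70 (4.73%) had a raw p under 0.05 against 4.63% of all peaks tested (edgeR, lowest adjusted p 0.92). DESeq2 gave 0 calls and 68 of 1480, against 4451 of 100808 peaks. At groupXIX 9776305 to 9776705 father-reared females had 12.0, 12.5 and 14.4 CPM and orphaned females 6.32, 8.38 and 11.9 CPM. Every father-reared female lay above every orphaned female. This was the only half-dose peak whose female care groups did not overlap, in either direction (0.0672%, against 0.0147% of all peaks). Their log2 difference of 0.57 (SE 0.14) did not pass (edgeR adjusted p = 0.92). Among males the same peak had medians of 4.39 CPM with father care and 5.32 CPM in orphaned fish.

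**Figure D5:**
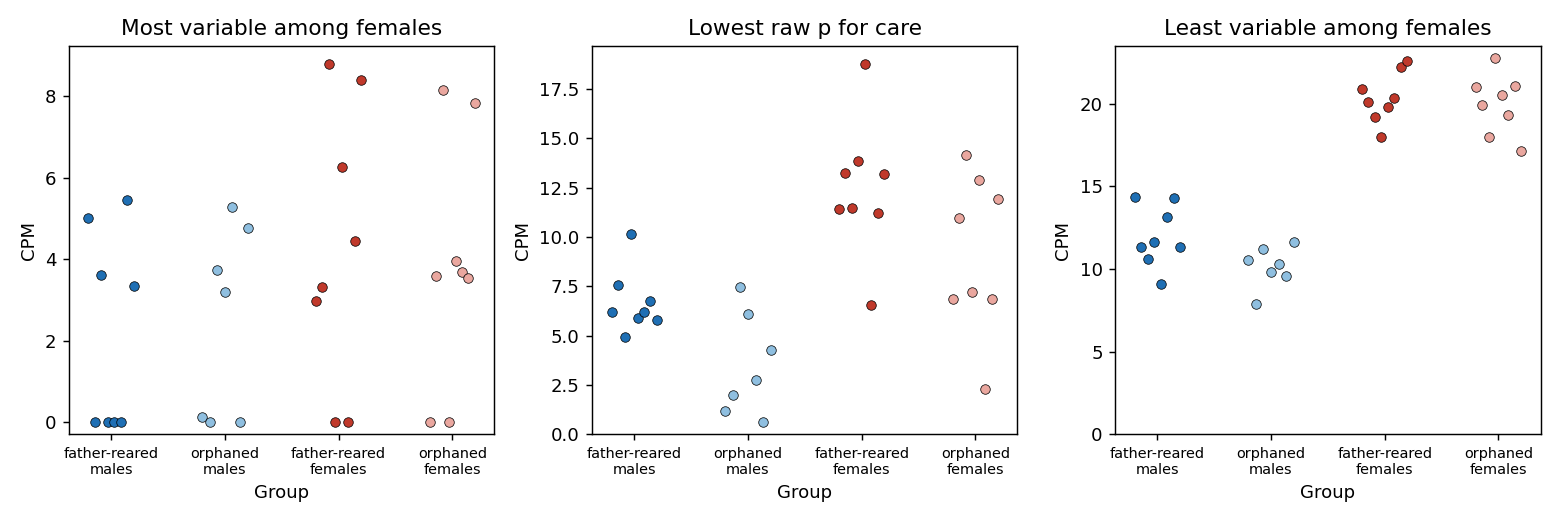
CPM (vertical axes) of 3 half-dose peaks in each fish, by sex and care group: groupXIX 5403434, groupXIX 8627906 and groupXIX 11578469 from left to right. The left axis starts just below 0 and the other axes at 0. In the left panel fish fall at or near 0 or well above it in every group, in the middle panel 5 orphaned males lie below all father-reared males, and in the right panel the females lie between 17.1 and 22.8 CPM.

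Whether care acted differently in males and females was tested as an interaction. It called 0 half-dose peaks, and 55 (3.72%) had a raw p under 0.05 against 3.49% of all peaks tested (edgeR, lowest adjusted p 1.00). DESeq2 gave 0 calls and 50 of 1480, against 3165 of 100808 peaks. Limma with family as a replicate block gave 0 and 59, against 3984 of 100808. The lowest raw p again belonged to groupXIX 9776305, with an interaction of -0.80 (log2 scale, SE 0.23) and an edgeR adjusted p of 1.00, the care difference being lower in males than in females. The intervals of this contrast were wide, within 1.5-fold for 41.5% of half-dose peaks, against 68.9% for care in males and 93.9% for care in females. For left against right brain sides 0 half-dose peaks passed, and 49 (3.31%) had a raw p under 0.05 against 4.06% of all peaks tested (edgeR, lowest adjusted p 0.99). DESeq2 gave 0 calls and 50 of 1480, against 3986 of 100808 peaks. Limma with the family block gave 0 and 63, against 4254 of 100808. The lowest raw p for side was at groupXIX 6195314 to 6195714, where left minus right was -0.33 on the log2 scale with an SE of 0.10 (edgeR adjusted p = 0.99).

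Between fish of 1 sex most half-dose peaks varied more than counting error alone gives (70.5% in males, 80.6% in females). So did most peaks off groupXIX (81.4% and 81.7%). A peak with counting error alone can also exceed its expected value, and how often it would is not given here. These shares are therefore not counts of peaks that truly vary. The median coefficient of variation was 25.3% in males, where counting error alone gives 23.5%, and 19.6% in females, where counting error gives 16.8%. Such coefficients do not add. The squared coefficient beyond counting had a median of 0.0120 in males and 0.0128 in females, against 0.0142 and 0.0146 off groupXIX. Off groupXIX the medians were 20.6% in males and 20.7% in females, where counting error gives 17.6% in each sex. Peaks were also compared within common limits of level, the quartiles of the half-dose peaks. From 3.42 to 5.83 CPM in males, the squared coefficient of variation beyond counting had a median of 0.0108 in half-dose peaks and 0.0213 off groupXIX. In females, from 7.15 to 11.3 CPM, it was 0.0104 in half-dose peaks and 0.0108 off groupXIX. The whole coefficients of variation of these same peaks were near equal. Their medians were 25.9% in half-dose peaks and 25.8% off groupXIX in males, and 19.6% and 19.7% in females. The male comparison sets half-dose peaks of middling rank beside peaks off groupXIX that are among the weakest there, and the difference was not tested. Levels were not matched inside the limits. In males the median half-dose level was 4.15 CPM, while the 10th percentile of all peaks off groupXIX was 5.28 CPM. The values of 0.0108 and 0.0213 are therefore not at the same level, and nothing is read from their difference. The steadiest half-dose peaks among females were groupXIX 11578469, 5162630 and 6988534, with coefficients of variation of 8.06%, 8.67% and 8.94%.

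A few half-dose peaks varied far more. In males 33 (2.22%) had a squared coefficient of variation beyond counting above 0.1, against 2.72% of peaks off groupXIX, and in females 15 (1.01%) did, against 2.61%. These shares were not tested against each other. The most variable was groupXIX 5403434 to 5403834, with a ratio of 0.567 ± 0.183 (SE). The means in that ratio take in fish at or near 0, which were more frequent among males. In 7 males this peak had from 0 to 0.134 CPM, in 4 from 3.19 to 3.74 CPM and in 4 from 4.78 to 5.45 CPM. In 4 females it had 0 counts, in 7 from 2.98 to 4.45 CPM, in 1 it had 6.26 CPM, and in 4 from 7.84 to 8.80 CPM. No fish lay between 0.134 and 2.98 CPM. In the 3 families where the sister had 0 counts the brother had at most 0.134 CPM, and 4 other brothers had 0 or 1 count while their sisters had more.

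The same fish were empty at the peak beside it. At groupXIX 5402688 to 5403088, 746 bases before it and with a ratio of 0.657 not a half-dose peak, 11 fish had at most 1 count, and all 11 were the fish with at most 1 count at groupXIX 5403434. At the next half-dose peak, groupXIX 5405241 to 5405641, 1807 bases after it, no fish had so few: the males had 2.91, 4.48 and 5.79 CPM (lowest, median and highest) and the females 5.56, 8.89 and 10.52 CPM. All but 5 half-dose peaks, 1482, had at least 1 count in every library. Besides groupXIX 5403434 the peaks with an empty library, chosen after their values were seen, were groupXIX 6926316 (0 counts in 5 males and 2 females), groupXIX 6928601 (3 males and 1 female), groupXIX 9403739 (4 males and 1 female) and groupXIX 9810769 (4 males and 1 female). The first 2 of these are close neighbours, with groupXIX 6927622 between them, which ran from 0.171 to 3.52 CPM in males and from 0.800 to 5.07 CPM in females.

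Half-dose peaks with counts in every library were ranked only where their mean was at least 2 CPM. Among these the highest coefficient of variation in females, 50.4%, was at groupXIX 9829602 to 9830002. It had 1.43, 2.99 and 9.32 CPM in males (lowest, median and highest) and 3.08, 7.58 and 17.3 CPM in females. It was followed by groupXIX 9051843 to 9052243, with a coefficient of variation of 50.3% in females, 2.34 CPM in the highest male and 7.87 CPM in the highest female.

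The summed level was set beside 3 library measures within each sex: the total count, the share of counts off groupXIX in the strongest 10% of peaks, and, for the half-dose peaks from 4 to 8 Mb, the sum of those from 8 to 12 Mb. Of the 6 relations 1 passed after adjustment. In females the summed level rose with the total count (Pearson r = 0.625, adjusted permutation p = 0.0379, n = 16, Spearman rho = 0.509, adjusted permutation p = 0.275). Without father-reared female replicates 1 and 5, the fish farthest from the median total, r was 0.308 (adjusted permutation p = 0.536), so the relation rests on those fish. In males r was -0.0189 (adjusted permutation p = 0.948, n = 15). With the share held by those strongest 10% r was 0.400 in males and 0.152 in females (adjusted permutation p = 0.425 and 0.839, n = 15 and 16). This holds for the sum alone. The median half-dose peak stood at 104.9% in the female with the lowest share (24.3%) and 89.3% in the one with the highest (36.8%). In males it stood at 51.2% with the lowest share (24.7%) and 45.8% with the highest (36.4%). Its relation to the share was not tested. The sums over 4 to 8 Mb and over 8 to 12 Mb had r of 0.248 in males and 0.104 in females (adjusted permutation p = 0.737 and 0.839, n = 15 and 16).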

How the data were processed

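ATAC-seq libraries of 31 stickleback brains were compared. The counts deposited by the authors are raw, not normalized, with 1 value for each peak in each library. DiffBind 3.14.0, MACS2 2.2.5, Bowtie2 2.3.5.1, Picard 2.10.1 and SAMtools 1.9 are named in the submitters' processing notes, with no role stated. The sources used here do not state the genome build, how duplicates were handled, or whether reads were shifted for the transposase. No gene or sequence was therefore assigned to a peak.

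CPM were computed here as counts over the library's total off groupXIX. All peaks were tested with edgeR 4.0.16 quasi-likelihood F tests (R 4.3.3, filterByExpr with a minimum count of 10 and 4 groups, TMM scaling, Benjamini-Hochberg adjusted p under 0.05). The model held care and sex, 4 group means, or side with sex and care; care was given to families, while the fit treats each fish as independent. Summed levels were compared by exact permutation, and relations by 100000 permutations. Alternatives were DESeq2 1.42.0, limma 3.58.1 with family as a random block, a fixed family block, RLE scaling, other filters and thresholds, side or library-number stretch (3 runs of 11 numbers) as covariate, other scalings and thresholds for membership, and each library left out for membership and summed levels.

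Peaks were named by a rule: the 5 strongest, the 3 lowest in ratio and the 3 on each side of the threshold (means of at least 1 CPM), those with the lowest raw p per comparison, the widest, and the 3 with the highest and the 3 with the lowest coefficient of variation among females (means of at least 2 CPM over all fish); further ones are marked where named. The members and lists were chosen with earlier results of these data known. Reads amplified by PCR and carrying no molecular identifiers are not independent, and errors from counts cover counting error alone.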

Additional observations from a re-analysis of the deposited data

Results flagged for a closer look

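In 122 groups of 7 or 8 fish or families, 5 values stood apart from the rest of their group by Dixon's criterion. For groups not picked by their values, chance flags about 1 group in 20. Most of the groups here are named peaks, many picked for extreme values in these data, so that rate need not hold. The 5 values are a description. At groupXIX 4739847 orphaned male replicate 5 had 6.80 CPM, against 3.46 to 4.14 CPM in the other 6 orphaned males. At groupXIX 11116109, the third peak inside the ratio threshold, father-reared male replicate 2 had 13.5 CPM, against 5.71 to 9.31 CPM in the other 7. At groupXIX 9051843 father-reared female replicate 2 had 7.87 CPM, against 1.59 to 4.00 CPM in the other 7, and orphaned female replicate 8 had 5.80 CPM, against 1.89 to 3.69 CPM in the other 7. In summed level, the family of orphaned male replicate 7 and orphaned female replicate 8 had a brother to sister ratio of 0.523, against 0.499 to 0.509 in the other 6 orphaned families.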

How the results depend on the processing

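The number of half-dose peaks ran from 1476 to 1491 with each library left out in turn, and 1447 of the 1487 were chosen every time. Chosen on father-reared fish alone there were 1433, of which 1414 were among the 1487, and on orphaned fish alone 1445, of which 1429 were. The median ratio moved by less than the spread between males under every alternative run. The summed male to female ratio was 0.514 with TMM library sizes and 0.497 with a threshold of 0.55, both more than 1 SD from 0.506. No half-dose peak was called under any alternative, the replicate blocks by family included (0 calls with the random and 0 with the fixed block; siblings' consensus correlation 0.0386 to 0.0420). The identifiers were read as pairing brother and sister, which the labels do not state. The lowest adjusted p among half-dose peaks for care over all fish (edgeR, DESeq2 or limma) ran from 0.46 to 0.73.

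The sign of the differences in summed level, none past the exact permutation test, changed in places, and with the median peak so did their size. The cause was not tested. With TMM sizes side became -0.0123 (males) and -0.00443 (females) on the log2 scale. With the median peak in place of the sum, care became -0.0485 (males), -0.0586 (females) and 0.0113 (brother minus sister). No p value is given here for these median values, and the test result stated for the summed level does not cover them. The mean share of counts in the strongest 10% of peaks off groupXIX was 31.9% in father-reared and 30.2% in orphaned males. In females it was 31.2% and 29.0%, with overlapping ranges in each sex, and these shares were not tested. Without the strongest 1% of peaks care became -0.00363 (males) and -0.00138 (females). Leaving out fish gave -0.00264 to 0.00844 for care and -0.00192 to 0.0162 for side in males, negative without father-reared male replicate 4 in both and without orphaned male replicate 2 in care. Within stretches of library numbers care in males was -0.00342, 0.0331 and -0.0151, and in females 0.0224, -0.0165 and 0.0180. These rest on 2 to 4 fish per care group, and the 0.0331 cannot be told apart from brain side. The relation of summed level with total count in females fell to r = 0.308, and that between the sums over 4 to 8 Mb and 8 to 12 Mb in females to -0.00753, without the 2 farthest fish. For care 68.9% of half-dose peaks had an interval within 1.5-fold in the 15 males and 93.9% in the 16 females, against 98.6% over all 31 fish. The median count per half-dose peak was 18 in the median male library and 37 in the median female library. Which share of these differences comes from counts per peak and which from the number of fish was not tested.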
